A study of Mus musculus with 2 samples.

Results

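Among the haematopoietic stem and progenitor cells (HSPCs) that the study listed in E18.5 wild-type femoral bone marrow, 1 subset, its myeloid progenitors, carried the RNAs of basophils and mast cells. The subset holds 144 of the 545 listed E18.5 HSPCs (26.4%, 95% exact binomial interval 22.8 to 30.3) and of the 12823 cell barcodes in the series. Its members are the cells that the study's own list of cells placed in cluster 0 of its HSPCs. They were set against the other 401 listed cells, namely 173 multipotent HSPCs, 89 megakaryocyte progenitors and 139 cells listed as neutrophil progenitors. The study's clustering read all genes of these cells, so each difference from the other subsets is given as a description, with no test.

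The study sequenced fetal marrow cells after magnetic removal of lineage-committed blood cells (Ter119, Gr-1, B220 and CD3e), with 1 library for each of 2 conditions. The first library came from WT C57BL/6 embryos at E18.5. The second came from E18.5 embryos labelled Bmx-CreER Wls, in which a tamoxifen-inducible Cre under the arterial promoter of Bmx removes floxed Wls, a gene needed for the secretion of Wnt proteins. How many embryos went into each library, and whether the WT embryos received tamoxifen, was not given in the sources used here, and with 1 library per condition the condition and the library cannot be told apart. The Cre is aimed at arterial endothelium, so the progenitors described here were not its target.

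Basophils and mast cells are the granulocytes that store histamine and bind IgE. Basophils leave the marrow mature and live briefly, whereas mast cells usually leave as progenitors, mature in tissues under the cytokine encoded by Kitl, and stay for long periods. Both come from myeloid progenitors that use the transcription factor Gata2, and both fill their granules with serine proteases held on the proteoglycan core serglycin. Mcpt8 and Prss34 encode proteases typical of mouse basophils. Cma1, Mcpt4 and Tpsb2 encode chymases and a tryptase of connective tissue mast cells, and Cpa3 encodes a carboxypeptidase of mast cells and their precursors.

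Each value below counts unique molecular identifiers (UMIs), which mark single RNA molecules. The members held 835283 UMIs, with a median of 4984 per cell (781 to 16622), against medians of 6311, 5608 and 7357 in the other 3 subsets. Levels are given in CPM, the UMIs of a gene per 1000000 UMIs of a subset, and a count of 0 allows up to 3.59 CPM in the members. Intervals are 95% intervals and cover counting error only, since the cells of 1 library are not replicates. The WT library held 22708005 UMIs in 5998 barcodes and the Bmx-CreER Wls library 24704991 UMIs in 6825 barcodes, and 49 barcodes occurred in both, among them 3 of the members. Wls itself, the targeted gene, stood at 135 CPM in all kept WT cells and 112 in all kept Bmx-CreER Wls cells. It stood at 40.6 (32.1 to 50.6) against 21.4 (15.2 to 29.4) in EC-like cells, and at 50.3 in the members.

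The 5 genes that mark the subset were Mcpt8, Prss34, Gata2, Cpa3 and Hdc. Their summed level was 3957 CPM (3823 to 4094) in the members, against 306 in multipotent HSPCs, 563 in megakaryocyte progenitors and 7.44 in the listed neutrophil progenitors. At least 1 UMI of the 5 was found in 109 of the 144 cells (75.7%, 67.9 to 82.4). Per 10000 UMIs of a cell, the sum ran from 0 through a median of 16.4 to 524, so the marker genes were far higher in some members than in others.

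The start sites of 4 genes are shown first. They are the searched genes that hold the letters AGATAA or TGATAA, which the Gata2 protein binds, and Cma1, which holds neither. Gata2 RNA was itself high in the members, and whether its protein acts at these genes was not tested. The bases are the 250 before the RefSeq start in GRCm38.p6, read 5′ to 3′ on the gene's strand. Capitals mark AGATAA or TGATAA, searched on both strands. Prss34 (chr17:25298144-25298393, plus strand) and Cpa3 (chr3:20242182-20242431, minus strand) hold 1 match each, at -31 and -46 from the start. Il1rl1 (chr1:40429320-40429569, plus strand), which encodes the receptor chain for the alarmin IL33, holds 2 at its first start, at -217 and -80. Cma1 (chr14:55944676-55944925, minus strand) holds none.
Prss34: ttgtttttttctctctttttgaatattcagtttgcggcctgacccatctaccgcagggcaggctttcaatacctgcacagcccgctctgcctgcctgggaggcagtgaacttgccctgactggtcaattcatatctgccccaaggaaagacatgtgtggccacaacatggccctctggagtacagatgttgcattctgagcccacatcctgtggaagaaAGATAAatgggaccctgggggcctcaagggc
Cpa3: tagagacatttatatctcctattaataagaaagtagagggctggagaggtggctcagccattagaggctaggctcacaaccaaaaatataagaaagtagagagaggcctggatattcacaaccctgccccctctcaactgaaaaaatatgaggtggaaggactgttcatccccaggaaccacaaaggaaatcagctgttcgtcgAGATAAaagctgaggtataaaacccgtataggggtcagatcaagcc
Il1rl1: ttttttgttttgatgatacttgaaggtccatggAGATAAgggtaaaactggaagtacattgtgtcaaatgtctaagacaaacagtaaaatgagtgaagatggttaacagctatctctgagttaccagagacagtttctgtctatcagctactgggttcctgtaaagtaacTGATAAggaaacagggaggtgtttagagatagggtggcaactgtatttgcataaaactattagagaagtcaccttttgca
Cma1: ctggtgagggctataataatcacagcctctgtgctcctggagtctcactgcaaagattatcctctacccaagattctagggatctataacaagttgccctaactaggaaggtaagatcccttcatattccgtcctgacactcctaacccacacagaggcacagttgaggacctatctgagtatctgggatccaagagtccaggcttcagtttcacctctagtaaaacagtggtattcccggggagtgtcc

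Of all 32851 RefSeq promoters of this length, 5452 (16.6%) hold at least 1 such match and 893 (2.72%) hold at least 2. A match describes the letters of the window and does not show a binding site. The windows of Mcpt8, Hdc, Gata2, Gzmb, Mpo, Ctsg and Prtn3 held none, and the window of a second Il1rl1 start held 1. Several of the protease genes lie in 2 clusters, while Cpa3 (chromosome 3) and Prtn3 (chromosome 10) lie outside them. On chromosome 14 of GRCm38, all on the minus strand, Cma1 spans 55941451 to 55944675, Mcpt4 56059629 to 56062313, Mcpt8 56082166 to 56085273, Ctsg 56099881 to 56102574 and Gzmb 56258838 to 56262260. On chromosome 17, Prss34 spans 25298394 to 25300165 and Tpsb2 25366305 to 25369098.

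**Figure D1:**
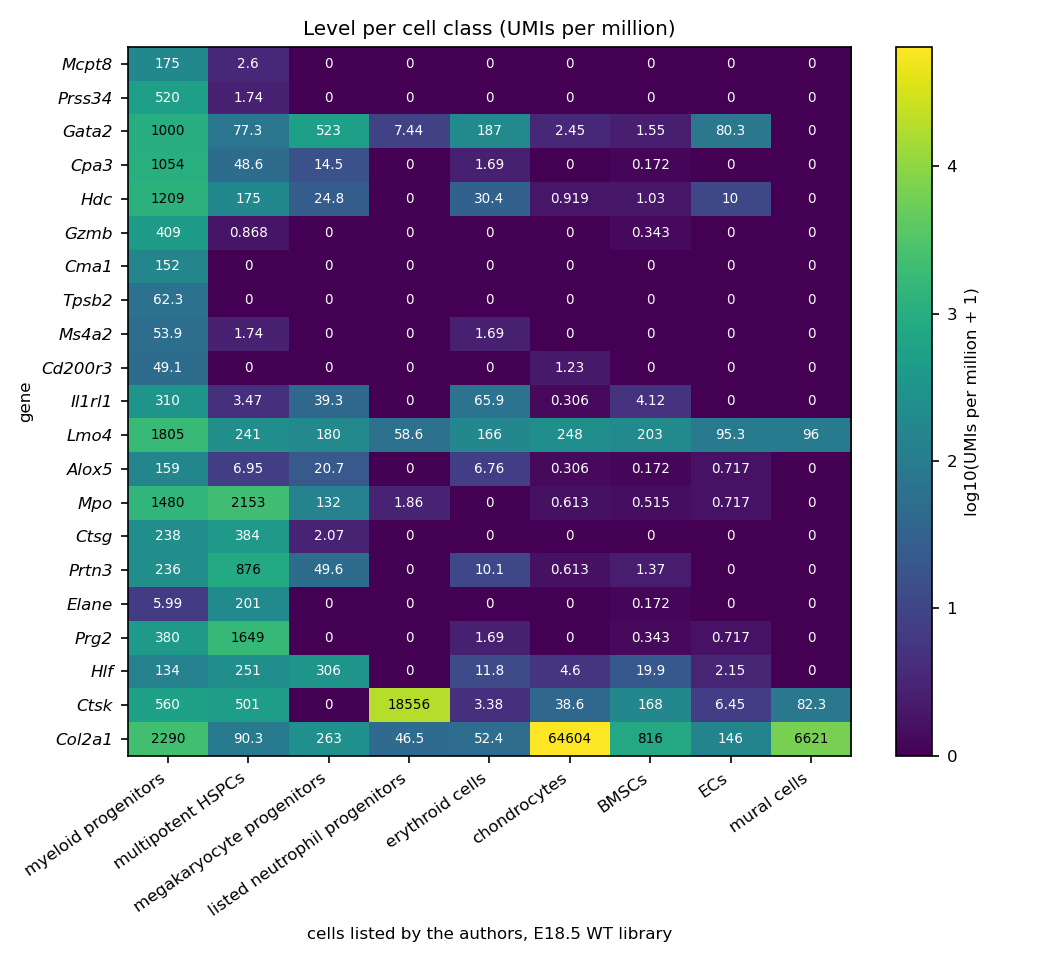
Levels of 21 genes (rows) in 9 sets of cells that the study listed in the E18.5 WT library (columns), printed in CPM and coloured by log10 of the level plus 1. Mcpt8, Prss34, Gzmb, Cma1 and Tpsb2 were at or near 0 outside the myeloid progenitors, Gata2 was also found in megakaryocyte progenitors (523), and Ctsk was highest in the cells listed as neutrophil progenitors (18556).

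Mcpt8 gave 146 UMIs in 27 of the 144 members, with 29, 26 and 24 in the highest 3 cells, and 3 UMIs in the other 401 listed HSPCs. Its level was 175 CPM (148 to 206), and the ratio of levels to the other HSPCs was 158 (53.0 to 775). Prss34 gave 434 UMIs in 24 members, with up to 87 in a cell, against 2 UMIs in the others (ratio 704, 194 to 5834). Both RNAs were thus found in few members and at high numbers, and the members held 97.3% of all Mcpt8 UMIs and 98.6% of all Prss34 UMIs of the WT library. No UMI of either gene was found in the 953 listed chondrocytes, cells that should lack them, although their median depth was lower at 2765 UMIs.

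Gzmb encodes granzyme B, a granule protease known best from killer lymphocytes. It gave 342 UMIs in 17 members and 1 in the other HSPCs (ratio 1110, 198 to 43967), the largest ratio of the genes with at least 200 UMIs. Cma1 gave 127 UMIs in 10 members, 55 of them in 1 cell, and none in the other HSPCs, which was 137-fold above the level of 3 counts there, with a lower limit of 110 for the ratio. Tpsb2 gave 52 UMIs in 3 members, 43 of them in 1 cell, Mcpt4 gave 11 in 2 members, and the mast cell receptor Mrgprb2 gave none. Tpsb2 has a close paralogue, Tpsab1, which gave 1 UMI, and the count table cannot show how reads common to such copies were placed.

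Cpa3 was broader. It gave 880 UMIs in 74 members, with 92 in each of the highest 2 cells and a median of 1 per cell, at 1054 CPM against 23.2 in the other HSPCs (ratio 45.3, 35.1 to 59.5). The members held 92.4% of the library's Cpa3 UMIs. Hdc, the enzyme that makes histamine, gave 1010 UMIs in 86 members (1209 CPM against 78.9, ratio 15.3, 13.2 to 17.8), and multipotent HSPCs held 175 CPM. Of the other genes of histamine storage, Srgn, the serglycin core itself, was found in 131 members at 1929 CPM (ratio 3.25, 3.03 to 3.48), and Slc18a2, which loads amines into vesicles, at 102 (ratio 5.11, 3.59 to 7.32).

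Gata2 was the least confined of the marker genes. It gave 835 UMIs in 100 members at 1000 CPM, against 523 in megakaryocyte progenitors, 187 in listed erythroid cells, 80.3 in listed ECs and 77.3 in multipotent HSPCs. Its ratio to the other HSPCs was 7.74 (6.83 to 8.80), and the members held 48.6% of its UMIs in the library. With each cell thinned to 1000 UMIs, which leaves out 6 shallower members, Gata2 was found in 43.5% of members, Hdc in 44.9%, Cpa3 in 34.8%, Mcpt8 in 10.1% and Prss34 in 9.42%, against unthinned shares of 69.4%, 59.7%, 51.4%, 18.8% and 16.7%. In thinned chondrocytes Gata2 and Hdc were found in 0.214% of cells each and the other 3 genes in none.

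Over all genes with at least 50 UMIs in the listed HSPCs, 351 of 7909 (4.44%) were at least 2-fold higher in the members and 654 (8.27%) at least 2-fold lower, and the median ratio was 1.06. The contrast is the one the clustering used, so the shares only set a scale for the lists that follow. Of the mast cell list, 6 genes reached 50 UMIs, 5 of them at least 2-fold higher and 1, Mitf, lower. Of the basophil list 5 genes reached it, Mcpt8, Prss34, Osm, Ccl3 and Ccl4, and all 5 were at least 2-fold higher. Mcpt8, Prss34 and, in the mast cell list, Cpa3 are marker genes of the subset, so these counts partly repeat its choice. Against multipotent HSPCs alone, where 3.32% of 6316 genes were at least 2-fold higher and 2.75% lower, the counts were 4 of 6 and 4 of 5 higher.

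The receptors of the basophil and mast cell lineages were unevenly detected. Il1rl1 gave 259 UMIs in 67 members at 310 CPM, against 8.48 in the other HSPCs (ratio 36.5, 23.8 to 58.7). Ms4a2, the beta chain of the high-affinity IgE receptor, gave 45 UMIs in 23 members (ratio 73.0, 19.1 to 621 against 2 UMIs). Fcer1a, the chain that binds IgE, gave 3 UMIs in 3 members and none elsewhere in the listed HSPCs. Fcer1g, the chain that the IgE receptor shares with other Fc receptors, stood at 224 CPM and was lower than in the other HSPCs (ratio 0.473, 0.403 to 0.551), where the listed neutrophil progenitors held 873. Of the 13 genes of the IgE receptor and its signalling with enough UMIs, none was at least 2-fold higher and 2 were lower. The shares of all genes were 4.44% and 8.27%, and the median ratio of the 13 was 0.997. Ms4a2 fell short of 50 UMIs and is not among the 13.

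Cd200r3, a receptor of basophils and mast cells, gave 41 UMIs in 15 members and none in the other HSPCs (44.4-fold above the level of 3 counts there, lower limit of the ratio 34.5). Csf2rb, the signalling chain shared by the receptors for IL3, IL5 and GM-CSF, was at 470 CPM in 86 members (ratio 2.90, 2.52 to 3.33). Kit, the receptor for stem cell factor, was at 205 CPM, close to 176 in megakaryocyte progenitors and above 143 in multipotent HSPCs. Il5ra, the eosinophil receptor chain, gave 3 UMIs, and Csf1r, the macrophage receptor, stood at 50.3 CPM (ratio 0.0955, 0.0685 to 0.130), and 33 of its 42 UMIs lay in 17 cells that clustered together (group 4), without which the ratio was 0.0241 (0.0110 to 0.0459). Of the 15 cytokine receptors with enough UMIs, 4 were at least 2-fold higher and 5 lower, against 4.44% and 8.27% of all genes. Compared with multipotent HSPCs alone, 2 of 13 were higher and 3 lower, against 3.32% and 2.75%.

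Cytokine RNAs were found in small numbers of members. Il13 gave 28 UMIs in 13 members and none in the other HSPCs (30.3-fold above 3 counts, lower limit 23.0), Il4 gave 19 UMIs in 14 members (ratio 15.4, 5.12 to 62.3), and both were found together in 6. Il6 gave 43 UMIs in 17 members (ratio 140, 23.7 to 5639 against 1 UMI). The chemokines Ccl3 and Ccl4 stood at 245 and 218 CPM (ratios 6.46 and 3.36), and Osm, a cytokine of the IL6 family, at 148 (ratio 4.85, 3.64 to 6.48).

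Alox5, the first enzyme of leukotriene synthesis, gave 133 UMIs in 54 members at 159 CPM against 6.64 (ratio 24.0, 14.6 to 41.7), and its partner Alox5ap stood at 400 (ratio 2.24, 1.94 to 2.57). Ltc4s, which makes leukotriene C4, and Hpgds, which makes prostaglandin D2, gave 1 and 3 UMIs. Of 6 lipid genes with enough UMIs 3 were at least 2-fold higher, against 4.44% of all genes. Compared with multipotent HSPCs alone 1 of 6 was, against 3.32% of all genes. Of 9 heparin synthesis genes 1 was higher and 2 were lower, against 4.44% of all genes higher and 8.27% lower. The higher one was Ndst2, the sulfotransferase needed for mast cell heparin (ratio 2.21, 1.48 to 3.28). None of 8 heparin synthesis genes was at least 2-fold higher than in multipotent HSPCs alone. Hs3st1, another heparin sulfotransferase, gave 18 UMIs in 9 members and none in the other HSPCs (19.5-fold above 3 counts, lower limit 14.3).

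Of 25 transcription factors with enough UMIs, 10 were at least 2-fold higher and 4 lower, against 4.44% and 8.27% of all genes. Compared with multipotent HSPCs alone, 7 of 23 were higher and 4 lower, against 3.32% and 2.75%. Lmo4, a LIM-only partner of such factors, was found in 111 members at 1805 CPM against 158 (ratio 11.4, 10.3 to 12.8). Klf1, which drives erythroid genes, stood at 39.5 and Gata1 at 110 (ratios 5.95 and 3.60). Cebpa, which drives granulocyte fate, stood at 138 (ratio 4.15, 3.12 to 5.53), Ikzf2 at 308 (ratio 4.21, 3.49 to 5.10) and Runx1 at 342 (ratio 2.60, 2.22 to 3.05). Those lower than in the other HSPCs were Spi1 at 74.2, Irf8 at 14.4, Mitf at 28.7 and Bhlhe40 at 10.8 CPM (ratios 0.270, 0.260, 0.333 and 0.0904). Without group 4, which held 6 of the 12 Irf8 and 6 of the 9 Bhlhe40 UMIs, the ratios of those 2 genes were 0.153 and 0.0355. Spi1 and Irf8 drive macrophage and dendritic genes, and Mitf is known from mast cells and osteoclasts. Spi1 was highest in the listed neutrophil progenitors (456), as was Mitf (167). The erythroid gene Car1 was also higher in the members (39.5 CPM, ratio 7.65). The erythroid list as a whole was lower, with a ratio of 0.396 (0.351 to 0.445). Among its 3 genes with enough UMIs, 1 was at least 2-fold higher and 2 were lower, against 4.44% and 8.27% of all genes.

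Markers of the neighbouring granulocyte lineage were shared with multipotent HSPCs. Mpo, the peroxidase of neutrophil granules, gave 1236 UMIs in 75 members at 1480 CPM, below the 2153 of multipotent HSPCs (ratio 0.687, 0.641 to 0.736). The proteases Ctsg and Prtn3 stood at 238 and 236 against 384 and 876. Elane, the elastase of neutrophil precursors, was far lower at 5.99 against 201, and the late neutrophil genes S100a8, S100a9 and Fcnb gave no UMI in the members. The sum of the neutrophil and monocyte granule list was 2050 CPM (1954 to 2149) in the members and 4061 in multipotent HSPCs. Of 6 genes with enough UMIs none was at least 2-fold higher than in the other HSPCs and 2 were lower, against 4.44% and 8.27% of all genes. Compared with multipotent HSPCs alone, none of 6 was higher and 3 were lower, against 3.32% and 2.75%.

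Defining macrophage genes were at or near 0, with no UMI of C1qa, C1qb and Mrc1 and 1 of C1qc. All 6 macrophage genes and all 7 osteoclast genes with enough UMIs were at least 2-fold lower than in the other HSPCs, where 8.27% of all genes were. Against multipotent HSPCs alone all 6 macrophage genes and 1 of 5 osteoclast genes were at least 2-fold lower, where 2.75% of all genes were. The cells listed as neutrophil progenitors held 18556 CPM of Ctsk, the osteoclast protease, against 1.86 CPM of Mpo, so their leading genes went against their name. Without them the count of genes at least 2-fold lower fell from 654 to 193, and that of genes at least 2-fold higher from 351 to 195. The 10 genes with the smallest ratios were Gpnmb, C1qc, Slc37a2, Oscar, Cd200, Gpr137b, Fblim1, Cd109, Slc6a8 and Pmepa1, at ratios of 0.0105 to 0.0430.

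Eosinophil granule RNA was held by single cells. Prg2, the eosinophil major basic protein, gave 317 UMIs in 2 members, 289 of them in 1 cell, and stood at 1649 CPM in multipotent HSPCs. Epx, the eosinophil peroxidase, gave 3 UMIs in 1 member. Of 6 eosinophil genes with enough UMIs 1, Siglec5, was at least 2-fold higher and 3 were lower, against 4.44% and 8.27% of all genes. Compared with multipotent HSPCs alone, 1 of 6 was higher and 5 were lower, against 3.32% and 2.75%.

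Genes of division lay closer to multipotent HSPCs than to the listed neutrophil progenitors. The S phase list stood at 3091 CPM (2973 to 3213) against 2915 (2817 to 3015) in multipotent HSPCs. The mitosis list was lower than in multipotent HSPCs, at 3149 (3029 to 3271) against 3538 (3430 to 3648). In the listed neutrophil progenitors the S phase and mitosis lists stood at 413 and 832. No gene of either list with enough UMIs was at least 2-fold higher or lower than in the other HSPCs, where 4.44% and 8.27% of all genes were. Without group 4 the S phase genes Mcm7, Cdc6 and Slbp passed 2-fold higher (ratios 2.09, 2.11 and 2.03). Mki67 was found in 96 members and Top2a in 100. Of 6 genes of the fetal programme none was at least 2-fold higher and 1 was lower, where 4.44% and 8.27% of all genes were. Hmga2 stood at 608 CPM against 905 in multipotent HSPCs and Lin28b at 32.3 against 39.1. Of the homing receptors, Cxcr4, the receptor for the niche chemokine Cxcl12, was at 176 CPM (ratio 3.16, 2.50 to 3.99). In this list 5 of 13 genes were at least 2-fold higher and 2 lower, against 4.44% and 8.27% of all genes. Compared with multipotent HSPCs alone, 1 of 12 was higher, against 3.32% of all genes.

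Clustering the 144 cells alone gave 4 groups. Group 1 held 62 cells (43.1%), group 2 held 45 (31.2%), group 3 held 20 (13.9%) and group 4 held 17 (11.8%). They were made from these genes, so their contents are a description. At a finer resolution, tried after seeing the data, group 1 split into sets of 29, 27 and 6 cells, the last joined with all 20 cells of group 3, group 2 split into 23 and 22, and group 4 stayed whole.

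Group 1, with a median of 7671 UMIs per cell, held most of the neutrophil and monocyte granule RNA. Mpo was found in 53 of its 62 cells at 1999 CPM, and the granule list stood at 2722 CPM against 1973 in group 2 and 660 in group 3. The 5 marker genes were present at 2089 CPM in 54 cells, mostly as Gata2 (49 cells), Hdc (42) and Cpa3 (36), with Mcpt8 in 12. Mitosis genes stood at 3982 CPM and ribosome biogenesis genes at 13209, above 2912 and 7432 in group 2. Its leading genes were Gm12141, Zfpm1, Syce2, Bola2 and Ccnb1.

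Group 2 was the richest in the marker genes, at 11348 CPM (10885 to 11826) in 39 of its 45 cells. It held 689 of the members' 880 Cpa3 UMIs, 669 of 1010 Hdc, 334 of 434 Prss34, 114 of 146 Mcpt8, 309 of 342 Gzmb, and all UMIs of Cma1, Tpsb2 and Mcpt4. Il1rl1 stood at 904 CPM there, Csf2rb at 1270, Hes1, a target of Notch signalling, at 834 and Ccr2, a chemokine receptor, at 296, against 152, 263, 9.06 and 4.53 in group 1. Its median depth was lower, at 4021 UMIs per cell. The lymphoid list stood at 176 CPM in 6 of its cells, mostly as Il7r (19 UMIs) and Gata3 (15), against 11.3 in group 1. Of its cells without a marker UMI, 1 held 9 UMIs of Il1rl1 and another held 10 of Hes1.

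Group 3 had little of either programme. Its 20 cells held 13 UMIs of the marker genes in all (191 CPM), and the stem and multipotent list stood at 3239 CPM against 1532 in the listed multipotent HSPCs. Hlf, a stem cell transcription factor, stood at 967 CPM, Cd34 at 997 and Flt3 at 352. Il1rl1, Mcpt8, Prss34 and Ctsg gave no UMI in them.

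Group 4 carried stromal RNA. The stromal and cartilage list stood at 31096 CPM in its 17 cells against 208 to 322 in the other groups, and Col2a1, the cartilage collagen, at 14612. The group held 1850 of the 1913 Col2a1 UMIs of the members, 462 of their 468 Ctsk UMIs, and 1 cell with 401 UMIs of Afp. In Scrublet, a score for droplets or wells that hold a pair of cells, 16 of the 17 cells were among the 5% of kept WT cells with the highest scores, against 1, 0 and 0 cells of groups 1 to 3. Its median depth was 7976 UMIs, and what put this RNA in these cells was not tested.

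Group 4 decided part of the gene lists. Of the 15 genes with the largest ratios to the other HSPCs, 10 were cartilage or liver genes, Afp, Matn1, Col11a1, Col9a3, Col10a1, Col9a1, Acan, Col2a1, Col11a2 and Col9a2, and the others were Gzmb, Prss34, Cpa3, Il1rl1 and Hdc. All 6 stromal and cartilage genes with enough UMIs were at least 2-fold higher, where 4.44% of all genes were. With group 4 left out, which was added after seeing the data, the first 15 included Gzmb, Prss34, Cpa3, Il1rl1, Hdc, Lmo4, Gata2, Hes1, Ccl3, Ifitm1, Fam46a, Padi2, Mns1 and Fcgr3. The ratio of Col2a1 was then 0.858 (0.642 to 1.13) in place of 22.1, and that of Ctsk 0.00112 in place of 0.0740. The summed level of the 5 marker genes was 4508 CPM, and the ratio of Cpa3 was 52.9 (40.9 to 69.4).

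**Figure D2:**
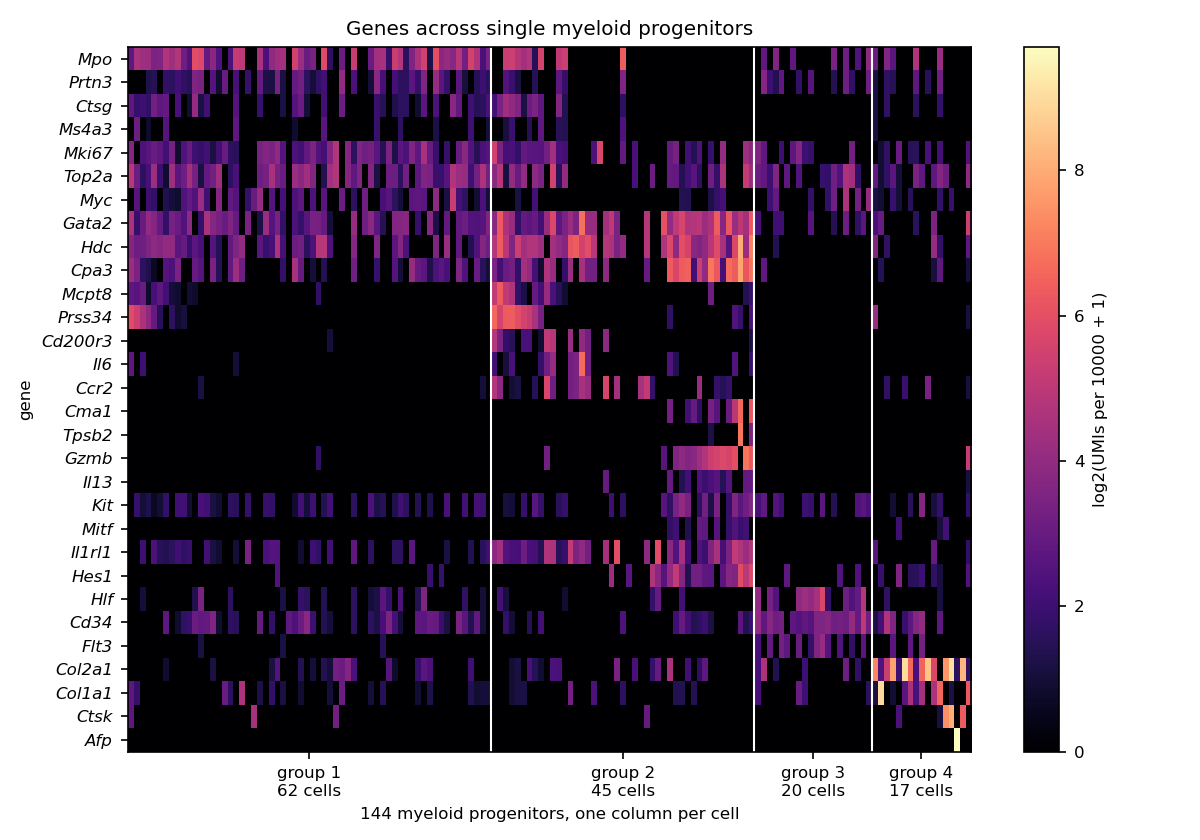
UMIs of 30 genes (rows) in each of the 144 myeloid progenitors (columns), as log2 of UMIs per 10000 UMIs of the cell plus 1, with white lines between the 4 groups. Mpo is found in 19 of the 27 cells with Mcpt8 and in none of the cells with Cma1 or Gzmb, and 1850 of 1913 Col2a1 UMIs lie in group 4.

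**Figure D3:**
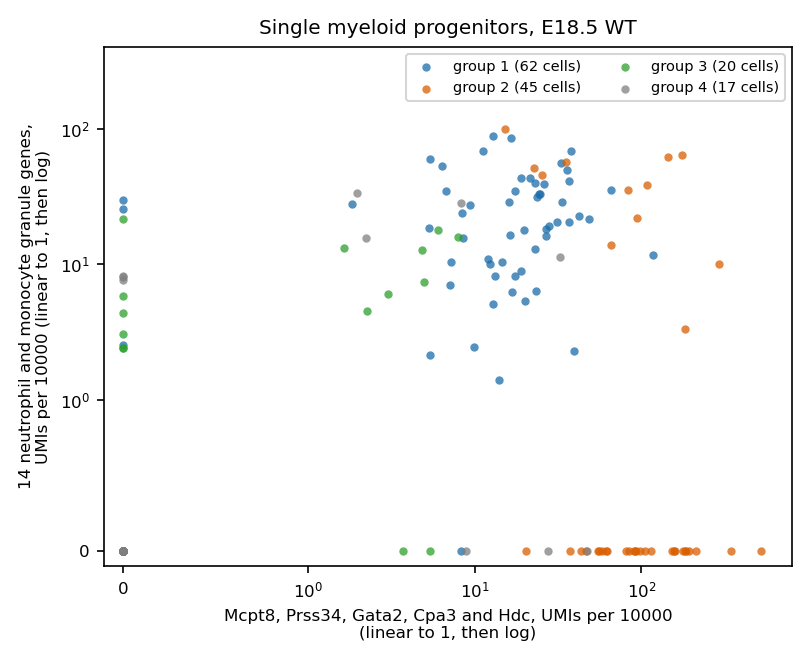
Each point is 1 myeloid progenitor, with the summed UMIs of the 5 marker genes on the x axis and of 14 neutrophil and monocyte granule genes on the y axis, both per 10000 UMIs of the cell and linear up to 1, then logarithmic. Granule RNA is found in 12 of the 45 cells of group 2 and in 56 of the 62 of group 1, and marker RNA in 9 of the 20 cells of group 3.

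Within single cells the proteases were sorted by 2 pairs. Of the members, 16 held at least 5 UMIs of Mcpt8 and Prss34 together and fewer than 5 of Cma1 and Gzmb together, 13 held the reverse, and 2 held at least 5 of each pair. Mcpt8 was found with Prss34 in 17 of its 27 cells and with Cma1 in 2. Cma1 was found with Gzmb in 8 of its 10 cells. Single UMIs crossed the pairs more often, with Prss34 in 4 of the 10 cells with Cma1, and Mcpt8 in 5 and Prss34 in 3 of the 17 with Gzmb. These pairs and the limit of 5 UMIs were chosen after the WT cells had been seen, and the 16 and 13 cells had median depths of 8134.5 and 5641 UMIs. Of the 16, 1 is the member that failed the filter on cells. Each set also holds a cell of group 4, with 14 UMIs of Prss34 and 32 of Gzmb. Among the 13, Cma1 reached 5 UMIs only in the cells with 14 and 35, so Gzmb chose most of that set.

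Mpo followed the first set. It gave 268 UMIs in 14 of the 16 Mcpt8/Prss34 cells, at 2102 CPM (1858 to 2370), and none in the 13 Cma1/Gzmb cells, where 3 counts would be 43.3 CPM. With single UMIs counted, Mpo was found in 19 of the 27 members with Mcpt8, in 0 of the 10 with Cma1 and in 0 of the 17 with Gzmb. Ctsg gave 91 UMIs in all 16 Mcpt8/Prss34 cells and none in the Cma1/Gzmb cells, although its gene lies between those of Mcpt8 and Gzmb. Cebpa stood at 314 CPM (224 to 427) against 1 UMI, Ms4a2 at 196 (127 to 290) against 1 UMI, and Cd200r3 at 165 (102 to 252) against none. Only 21 of the members' 41 Cd200r3 UMIs lay in the 16 cells. The members with the most Cd200r3, at 8 and 7 UMIs, held no Mpo UMI, and the cell with 7 is in neither set.

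The Cma1/Gzmb cells held the larger share of mast cell RNAs. Cpa3 stood at 5794 CPM (5240 to 6389) in them, found in all 13, against 471 (359 to 606). Hdc stood at 3800 against 1883 and Gata2 at 3410 against 1130. Il1rl1 stood at 1069 against 384, Kit at 636 (462 to 853) against 126 (71.7 to 204), and Itgb7, an integrin chain that mast cell progenitors use to enter tissues, at 419 against 102. Hes1 gave 98 UMIs in 12 of the 13 cells, Mitf 16 in 9 and Il13 16 in 9, and each of these 3 gave none in the Mcpt8/Prss34 cells, where 3 counts would be 23.5 CPM.

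Several genes did not separate the sets. Srgn stood at 3232 CPM (2927 to 3560) in the Mcpt8/Prss34 cells and at 3439 (3016 to 3904) in the Cma1/Gzmb cells, Csf2rb at 651 and 780, Alox5 at 455 and 361, Mki67 at 573 and 520, and Top2a at 941 and 852. The intervals of each of these pairs overlap.

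**Figure D4:**
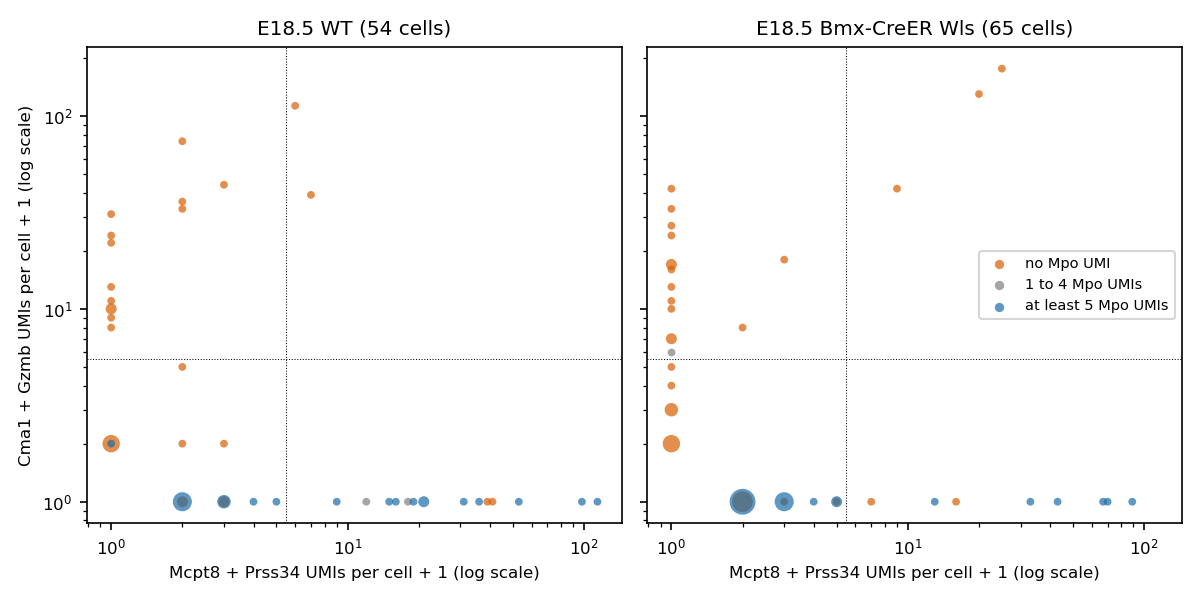
Each point is a cell with a UMI of Mcpt8, Prss34, Cma1 or Gzmb (54 of all kept WT cells and 65 of all kept Bmx-CreER Wls cells), with the Mcpt8 and Prss34 UMIs plus 1 on the x axis and the Cma1 and Gzmb UMIs plus 1 on the y axis, both logarithmic. Dotted lines mark 5 UMIs, larger points hold more cells at 1 position, and cells with 5 or more Mpo UMIs (blue) lie along the lower edge in both libraries, apart from 1 WT cell with a single Cma1 or Gzmb UMI.

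The Bmx-CreER Wls library, whose cells took no part in choosing the pairs, was read the same way over all its 6620 kept cells. There 8 cells held the Mcpt8 and Prss34 pair, 15 the Cma1 and Gzmb pair, and 3 held both. With single UMIs counted, Prss34 was found in 4 of the 8 cells with Cma1. Mpo stood at 4170 CPM (3709 to 4672), found in 6 of the 8 cells, and gave 1 UMI in the 15, and it was found in 25 of 32 cells with Mcpt8, 0 of 8 with Cma1 and 1 of 26 with Gzmb. Ctsg stood at 1306 against no UMI, Cebpa at 197 against none, and Cd200r3 at 197 against none. Cpa3 stood at 646 against 4687, Hes1 at 1 UMI against 1430 CPM and Mitf at 1 UMI against 150 CPM, and Il1rl1 and Gata2 were again higher in the Cma1/Gzmb cells (1247 against 421 and 2741 against 1193). For each of these 9 genes the higher set was the one that was higher in the WT members, and the cells of each set come from 1 library, so no test was made. Srgn, whose intervals overlapped in the WT members, stood at 4071 (3616 to 4568) against 2924 (2587 to 3293).

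Of the 5 cells with both pairs, 2 WT and 3 Bmx-CreER Wls, none held a UMI of Mpo or Ctsg. In the Bmx-CreER Wls library, 1 of them held 175 UMIs of Cma1, 279 of Mcpt4, 258 of Tpsb2, 324 of Cpa3 and 11 of Mrgprb2 beside 24 of Prss34, in 6207 UMIs. Another held 129 of Cma1, 83 of Tpsb2 and 165 of Cpa3 beside 19 of Prss34, in 8071 UMIs. In the WT library a further member with 43 UMIs of Tpsb2 held 35 of Cma1, 84 of Cpa3 and 1 of Prss34, in 3609 UMIs.

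**Figure D5:**
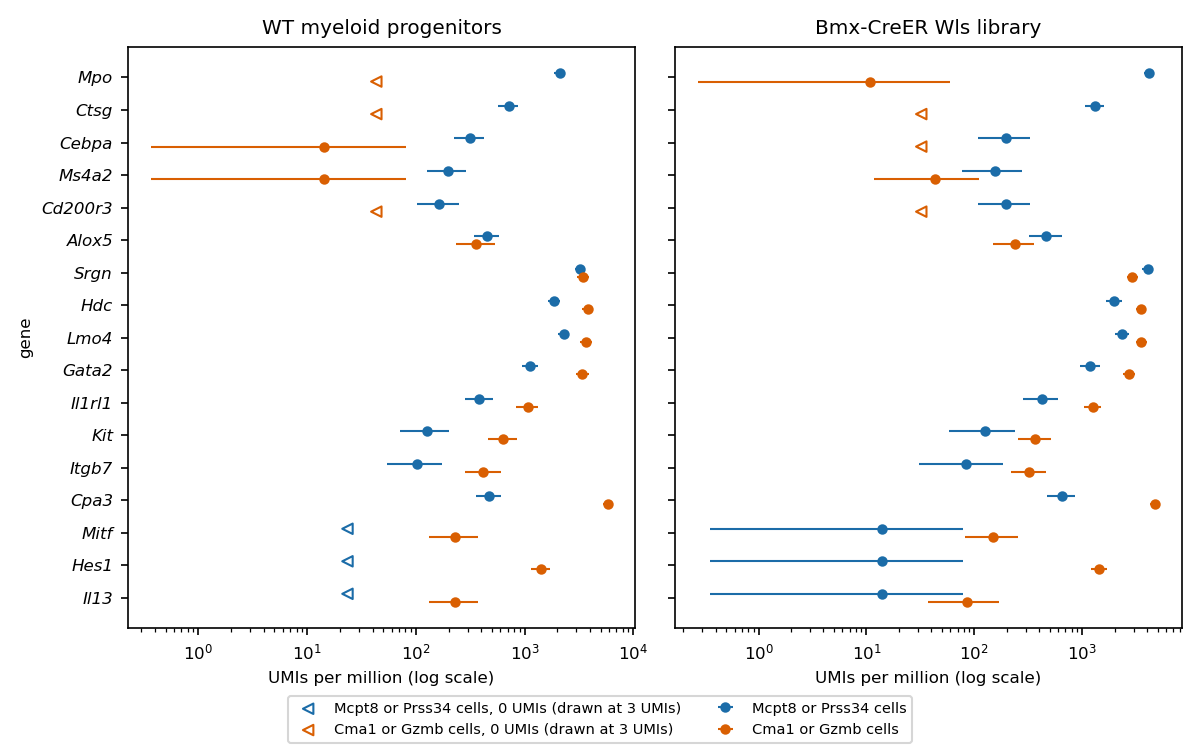
Levels of 17 genes (rows) in cells with at least 5 UMIs of Mcpt8 and Prss34 (blue, 16 WT members and 8 Bmx-CreER Wls cells) and in cells with at least 5 UMIs of Cma1 and Gzmb (orange, 13 and 15 cells), in CPM on a log axis with 95% Poisson intervals. Open triangles stand at 3 UMIs where none was found, and Mpo, Ctsg and Cebpa lie to the right in the blue cells of both libraries, Cpa3, Mitf and Hes1 in the orange ones.

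With each cell thinned to 1000 UMIs, 18 of 138 members (13%, 7.92 to 19.8) held at least 10 UMIs of the 5 genes, 52 held none, and 12 lay between 8 and 12. No cell of the other listed HSPC subsets reached 10, with 0 of 173, 0 of 87 and 0 of 137 cells. The class is a range of a sum and not a cell type.

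To find the same cells in the library without listed cells, each kept cell was given to the listed class whose pooled profile made its UMIs most likely, over genes of no marker list. Of the 143 members kept by the filter, 82 (57.3%) came back when held out, 44 of 45 in group 2, 31 of 61 in group 1, 7 of 17 in group 4 and 0 of 20 in group 3. Of the others, 29 went to multipotent HSPCs and 19 to megakaryocyte progenitors. The WT class also took 7 cells listed as multipotent HSPCs, 2 listed as megakaryocyte progenitors and 2 listed as erythroid cells. The class is therefore not the members themselves, and its names are rebuilt and not the study's.

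The class held 93 WT cells (1.62% of 5736 kept cells, 1.31 to 1.98) and 71 Bmx-CreER Wls cells (1.07% of 6620, 0.839 to 1.35). Of the HSPC-like cells alone it was 17.2% (14.1 to 20.7) and 18.2% (14.5 to 22.3), while chondrocyte-like cells made up 44.5% and 64.3% of the libraries. The lower share of all cells stood beside a larger share of chondrocyte-like cells, and what set it was not tested.

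Within the Bmx-CreER Wls library the genes kept out of the assignment separated the class from its other HSPC-like cells. The 5 marker genes stood at 6499 CPM against 263, and all 5 were at least 2-fold higher, where 4.39% of 7154 genes were and 9.39% were at least 2-fold lower. Prss34 gave 303 UMIs in 16 cells against 1 UMI, Cpa3 stood at 2264 against 30.9, Hdc at 2036 against 73.1 and Il1rl1 at 571 against 8.44. Cma1, Tpsb2 and Mcpt4 gave no UMI in the other HSPC-like cells. Mpo, also kept out, stood at 1451 CPM against 1091, and of the 12 granule genes with enough UMIs none was at least 2-fold higher and 9 were lower.

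Between the libraries few genes of the class were past 2-fold. Of 4280 genes with at least 50 UMIs, 1.05% were at least 2-fold higher in the Bmx-CreER Wls cells and 1% at least 2-fold lower, the median ratio was 0.991, and none of the 5 marker genes and none of the 8 basophil genes with enough UMIs was past 2-fold. Mcpt8 stood at 246 (207 to 290) in WT and 197 (160 to 240) in Bmx-CreER Wls cells, Gata2 at 1225 and 1386, Hdc at 1803 and 2036, Gzmb at 605 and 555, and Lmo4 at 2359 and 2294. Mpo was at 2051 and 1451 (ratio 0.707, 0.644 to 0.777) and Cebpa at 164 and 77.2 (ratio 0.470, 0.313 to 0.692). All 12 mitosis genes lay within 2-fold, with a summed level of 3144 and 3146. The class also held stromal and cartilage RNA in both libraries, at 6630 and 5121 CPM, and its part in these values was not tested.

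Single cells moved the levels of rarer genes. The sum of the 5 marker genes was 5476 and 6499 (ratio 1.19, 1.13 to 1.25), and 5549 without the 1 Bmx-CreER Wls cell that held the most mast cell UMIs (ratio 1.01, 0.962 to 1.07). Cpa3 was at 1450 and 2264, and 1626 without that cell. Mcpt4 was at 19.4 and 567, with all 279 UMIs in that cell, Tpsb2 at 91.9 and 697, and 175 without it, and Cma1 at 225 and 667, and 315 without it. Of 6 eosinophil genes 5 were at least 2-fold lower, with Prg2 at 3168 in 9 WT cells and at 150 in 2 Bmx-CreER Wls cells, where the members hold 2 cells with Prg2 in all. Of the mast cell list 3 of 6 genes were past 2-fold higher, and the list's ratio fell from 2.16 to 1.18 (1.09 to 1.27) without the 1 cell.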

How the data were processed

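The values used are UMI counts, deposited by the authors as 1 genes-by-barcodes table per library and not normalized. Cells were captured with BD Rhapsody, and reads were processed with UMI-tools 1.0.1, aligned to mm10 with STAR 2.7.1a and counted with featureCounts 1.6.4. The members and gene lists were chosen with earlier results of these data known. Members were matched by barcode to the cell list of the study, whose clusters also hold adult cells. The filter on cells kept those above 200 and below 5000 detected genes with under 30% of UMIs from mitochondrial genes (5736 WT, 6620 Bmx-CreER Wls, medians of 3128 and 3067 UMIs). All 144 members were summed, of which 143 pass.

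Levels are summed UMIs per 1000000 (CPM) with exact Poisson intervals, shares have Clopper-Pearson intervals, and ratios have conditional binomial intervals. With 1 library per condition no test was made. On simulated Poisson counts the ratio interval held the true value for 97% of 200 changed genes and 96.1% of 7709 unchanged genes. Such counts leave out the clumping of UMIs in single cells, so they cannot show how the intervals behave under it. The text names the 5 marker genes, members of 26 fixed lists by level or ratio, and the 15 largest and 10 smallest ratios among genes with at least 200 UMIs. Other genes, such as Hes1, were named after their values were seen. Siglec5 stands for Siglecf under its earlier symbol.

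Groups came from Leiden clustering at resolution 0.5 in scanpy 1.11.5 (11 principal components, 20 neighbours, 3404 variable genes without the S phase and mitosis lists). Doublets were kept. Scrublet's automatic threshold marked 38 of 5736 cells (0.662%), so the top 5% of scores was used instead. Scaling alternatives used edgeR 4.0.16 and DESeq2 1.42.0, intervals scipy 1.17.1. Promoters come from RefSeq (GRCm38.p6). Some genes that the rule names are not reported here.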

Additional observations from a re-analysis of the deposited data

How the results depend on the processing

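Of 53 alternatives, 26 left a value within its counting interval, or a count of genes within 1.5 times, and 27 moved it. The summed level of the 5 marker genes (3957 CPM) was 4493 after removal of cells in the top 5% of Scrublet scores, 4163 without haemoglobin and mitochondrial genes in the total, 3750 with TMM factors, 3716 with DESeq2-type size factors, 4231 as a mean over cells, 4420 in cells thinned to 1000 UMIs and 4508 without group 4, In the same order the level of neutrophil and monocyte granule genes (2050) was 2305, 2157, 1942, 1925, 1530, 1529 and 2313. Genes at least 2-fold higher (351) numbered 78 when thinned, 2805 with all genes of at least 1 UMI, 113 with at least 200 UMIs and 195 without the listed neutrophil progenitors, and genes at least 2-fold lower (654) numbered 180, 3813, 264 and 193. The share of members rich in the marker genes (13%) was 28.3% at 5 UMIs and 5.07% at 20. In the Bmx-CreER Wls class the marker level (6499) was 6985 when all genes were used for the assignment, 7454 by Pearson correlation and 5549 without the cell with the most mast cell UMIs. The causes were not tested. Leaving out group 4 or that cell was chosen after seeing the data. No paired analysis was possible because each condition has 1 library. Precision is limited by few cells, with a median of 4984 UMIs, so RNAs of a few molecules per cell were missed in shallow cells, and intervals do not cover the spread between embryos.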
